A study of Homo sapiens with 6 samples.

Results

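The genes described here are 9 members of the vascular endothelial growth factor (VEGF) system: the ligands VEGFA, VEGFB, VEGFC and PGF, the receptors FLT1, KDR and FLT4, and the coreceptors NRP1 and NRP2. They were chosen by gene name, with earlier results of these data known, and make up 9 of the 62252 genes to which the transcripts of the files were matched, with 97 annotated transcripts among them. RNA came from K562, a human erythroleukemia line that grows in suspension and stands here for 1 line in culture. The Chelator group was kept overnight with 10 µM of the iron chelator 21H7, and the DMSO group with an equal volume of that solvent. Each group had 3 biological replicates, polyadenylated RNA was sequenced as paired-end reads, and no genetic change separates the groups. The study asked how a lack of available iron alters mRNA levels and splicing.

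VEGF ligands are secreted proteins that bind receptor tyrosine kinases, and are best known for driving the growth and leakiness of blood vessels. FLT1 (VEGFR-1) binds VEGFA, VEGFB and placental growth factor, KDR (VEGFR-2) carries most of the growth signal of VEGFA in endothelial cells, and FLT4 (VEGFR-3) serves VEGFC in lymphatic vessels. The neuropilins bind both VEGF and class 3 semaphorins. FLT1, and likewise NRP1, is also made as shorter soluble forms that lack the membrane anchor and trap ligand outside the cell. VEGFA is a classic target of hypoxia-inducible factors, whose oxygen sensors need iron.

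VEGFA, FLT1 and NRP1 were higher in all 3 Chelator libraries than in any DMSO library, by 6.21-, 169- and 39.5-fold. The folds of FLT1 and NRP1 are uncertain in size, since they rest on 5 to 20 and on 1 to 11 counts in a DMSO library. With 1 library left out, FLT1 ran from 6.92 to 7.84 and NRP1 from 4.58 to 6.62 on the log2 scale. FLT1 and NRP1 were close to absent from DMSO cells. VEGFB was lower in Chelator by less than the fold threshold, PGF, FLT4 and NRP2 did not pass the test, and VEGFC and KDR were not expressed at a level that could be tested. Most of the FLT1 RNA in Chelator cells was estimated as soluble forms, and the VEGFA form that skips exons 6 and 7 took a smaller part of VEGFA RNA.

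The libraries held 78.6 to 90.4 M estimated counts (M, 1e+06) in DMSO and 85.4 to 101 M in Chelator, and the totals of the groups overlapped. Fragments averaged 252 to 264 bases in the DMSO libraries but 200 to 218 in the others, without overlap, so that an effect of treatment and one of fragment length cannot be told apart. The erythroid identity of the cells was checked on 11 markers, which summed to 12534 to 13877 TPM (a level scaled to the library and corrected for transcript length) in DMSO and 17648 to 18831 TPM in Chelator. Most of both sums came from the globins HBG1, HBG2, HBE1 and HBZ. Of 14 endothelial markers, CDH5, EMCN and SOX17 were at 0 in every library, while others were expressed in both groups, such as PECAM1 (7.28 TPM on average with DMSO and 4.22 with the chelator), SOX18 (7.26 and 6.23) and MMRN2 (1.04 and 0.539). The summed TPM of the 14 was 84.5 to 88.4 in DMSO and 149 to 165 in Chelator, of which EGFL7, expressed in both groups, held 68.9 to 70.5 and 134 to 152 TPM. The summed TPM was 99.4 to 105 against 123 to 147 for 8 megakaryocyte markers and 43.6 to 47.8 against 58.8 to 64.3 for 7 monocyte and macrophage markers, with no gene called in either list. The part of these markers in the results below was not tested.

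A gene was called when DESeq2's Wald test gave a Benjamini-Hochberg adjusted p under 0.05 and the absolute log2 fold change was above 1. Of 24540 genes with an adjusted p, 2646 (10.8%) were called, 2007 (8.18%) higher and 639 (2.6%) lower in Chelator. Among the 9 members, 7 had a total count above 10 and were tested, and 3 of these were called, all higher. No test was run over the 9 genes as a group.

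**Figure D1:**
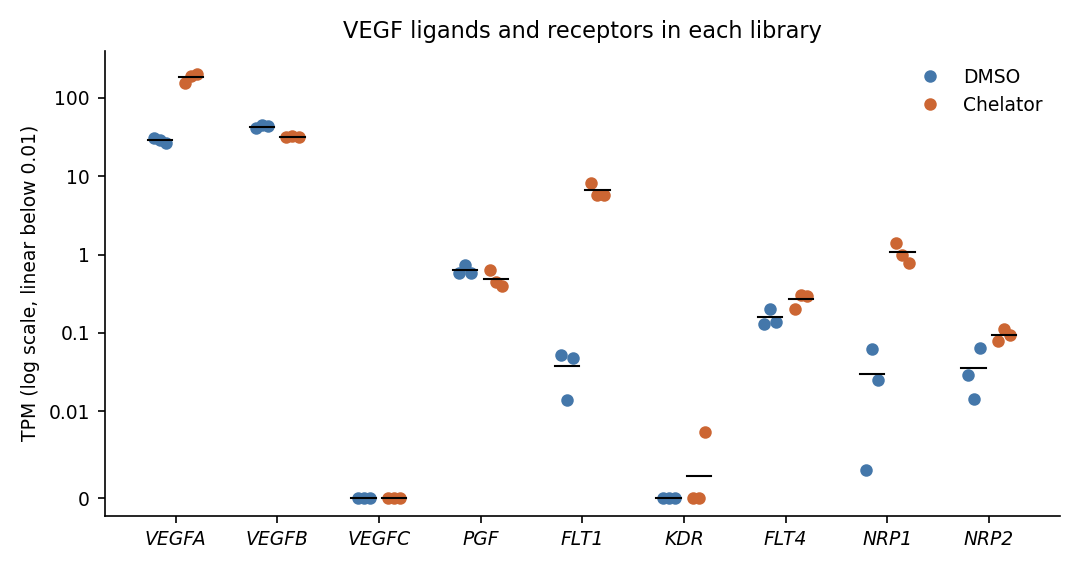
TPM of each member gene in each of the 6 libraries (points; the line is the group mean of 3 libraries) on an axis that is logarithmic above 0.01 TPM. The Chelator points of VEGFA, FLT1 and NRP1 lie above all their DMSO points, VEGFB lies slightly lower, and VEGFC is at 0 in every library.

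VEGFA (ENSG00000112715.26, chr6:43770184-43786487, plus strand) encodes the main vessel-growth ligand. Its DMSO levels were 30.6, 28.8 and 26.5 TPM, and its Chelator levels 157, 189 and 201 TPM. Every Chelator library was thus far above every DMSO library, and the spread within a group was small beside the gap. Normalized counts, which are corrected for library size and transcript length, were 5634 ± 680 in DMSO and 35013 ± 3739 in Chelator (SD, n = 3). The log2 fold change was 2.64 (SE 0.10; adjusted p = 9.21e-143, DESeq2). Of the 24540 genes ranked, 903 (3.68%) had a larger rise. In a bulk sample a rise in every cell and a rise in some of the cells cannot be told apart.

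VEGFB (ENSG00000173511.10, chr11:64234584-64239264, plus strand) encodes a ligand of FLT1 tied mainly to cell survival and metabolism rather than vessel growth. It was at 41.1, 44.8 and 43.5 TPM in DMSO and at 31.9, 32.4 and 32.1 TPM in Chelator. The groups did not overlap and VEGFB went the other way from VEGFA. Its log2 fold change was -0.46 (SE 0.08; adjusted p = 9.4e-08, DESeq2), a fold of 0.729 that stays inside the fold threshold, so VEGFB was not called. At any fold, 37.7% of all genes had an adjusted p under 0.05, and 18.3% were lower in Chelator by that measure. In DMSO VEGFB was the more abundant ligand, in Chelator VEGFA.

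PGF (ENSG00000119630.14, chr14:74941834-74955626, minus strand), placental growth factor, binds FLT1 but not KDR. It was at 0.577, 0.734 and 0.586 TPM in DMSO and at 0.632, 0.440 and 0.398 TPM in Chelator. The groups overlapped, and the log2 fold change of -0.38 (SE 0.29; 95% interval -0.95 to 0.19; adjusted p = 0.329, DESeq2) did not pass the test. VEGFC, the lymphatic ligand at chr4:176683538-176792922, had a count of 0 in all 6 libraries. VEGFD, its near relative and no member of the set, had at most 4 counts in a library.

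FLT1 (ENSG00000102755.13, chr13:28300346-28495145, minus strand) showed the largest change of the members. Its estimated counts were 20, 5 and 10 with DMSO and rose to 3242, 2385 and 2001 with the chelator. That is 0.0526, 0.0138 and 0.0472 TPM in DMSO and 8.24, 5.81 and 5.70 TPM in Chelator, so RNA of the gene, all forms together, was barely detectable in DMSO and well above that in every Chelator library. Normalized counts were 13.7 ± 8.18 in DMSO and 2249 ± 554 in Chelator (SD, n = 3), with a log2 fold change of 7.40 (SE 0.56; adjusted p = 5.76e-38, DESeq2). Only 35 (0.143%) of the genes ranked had a larger rise.

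NRP1 (ENSG00000099250.18, chr10:33177492-33336262, minus strand), the coreceptor that presents VEGFA to KDR and binds semaphorin 3A, had 1, 11 and 3 counts in DMSO and 267, 234 and 175 counts in Chelator. On the TPM scale this was 0.00329, 0.0616 and 0.0254 in DMSO and 1.41, 0.998 and 0.787 in Chelator. Levels in DMSO were at the edge of detection, and no Chelator library came near them. The log2 fold change was 5.30 (SE 0.53; adjusted p = 2.78e-22, DESeq2). Its size hung on single DMSO libraries: it was 4.58 without DMSO replicate 1, which had 1 count, and 6.62 without DMSO replicate 2, which had 11, and NRP1 was called in both. On the log2(TPM + 1) scale, which compresses low genes, limma gave a change of 0.99 (adjusted p = 0.0013), just under the fold threshold.

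FLT4 (ENSG00000037280.16, chr5:180601506-180649624, minus strand) was at 0.130, 0.204 and 0.139 TPM in DMSO and at 0.204, 0.303 and 0.298 TPM in Chelator. The highest DMSO library lay just under the lowest Chelator library. Its log2 fold change of 0.76 (SE 0.34; 95% interval 0.10 to 1.42; adjusted p = 0.0628, DESeq2) missed the threshold. Without the length offset FLT4 was called, at 1.05 (adjusted p = 0.00357), and its RNA had an estimated mean effective length of 4105 bases with DMSO and 4944 with the chelator.

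NRP2 (ENSG00000118257.17, chr2:205681990-205798133, plus strand), the coreceptor of VEGFC and semaphorin 3F, had 3, 2.82 and 12 counts in DMSO and 10, 15 and 9.68 counts in Chelator. Its log2 fold change of 1.33 had a 95% interval of -0.52 to 3.18 (adjusted p = 0.286, DESeq2), so the depth does not settle a direction. It was 0.89 without DMSO replicate 2, 2.19 without DMSO replicate 3 and 0.66 without the length offset. KDR (chr4:55078481-55125595), the main signaling receptor for VEGFA in endothelium, had 1 count in 1 Chelator library and 0 in the other 5 libraries. FLT1 and NRP1 thus rose in cells with at most 1 KDR count in a library.

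**Figure D2:**
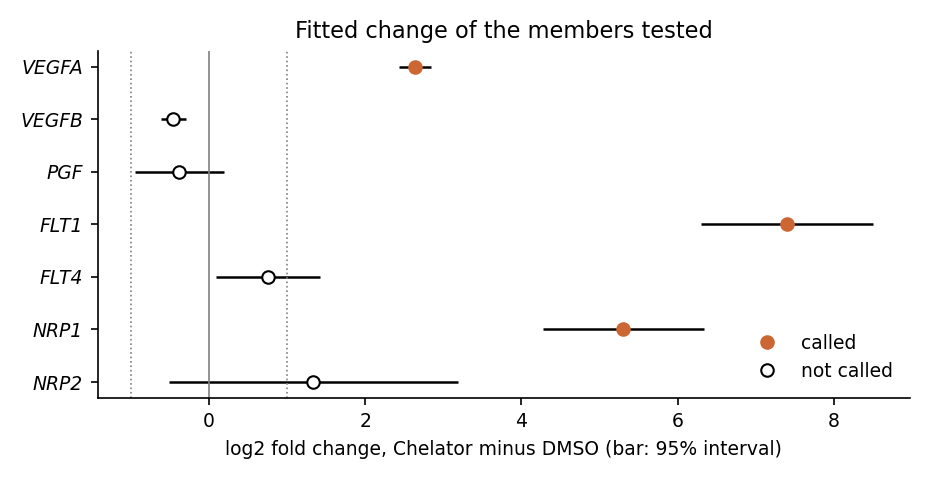
Fitted log2 fold change (Chelator minus DMSO) of the 7 members tested, with 95% intervals as bars and dotted lines at the fold threshold of 1 in either direction. VEGFA, FLT1 and NRP1 lie wholly beyond the threshold, VEGFB lies below 0 inside it, and the intervals of PGF and NRP2 include 0.

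Ordered by level per length, DMSO cells had VEGFB (43.1 ± 1.86 TPM, SD, n = 3) above VEGFA (28.6 ± 2.05), then PGF (0.632 ± 0.0886) and FLT4 (0.158 ± 0.0404), with FLT1 (0.0379 ± 0.0210), NRP2 (0.0359 ± 0.0260) and NRP1 (0.0301 ± 0.0294) not separable from each other. Chelator cells had VEGFA (182 ± 22.6 TPM) above VEGFB (32.1 ± 0.287), then FLT1 (6.58 ± 1.44), NRP1 (1.07 ± 0.319), PGF (0.490 ± 0.125), FLT4 (0.268 ± 0.0557) and NRP2 (0.0951 ± 0.0160). FLT1 and NRP1 thus moved from the foot of the order to the places just under the ligands VEGFA and VEGFB. Across libraries, the called genes whose log2 normalized counts followed VEGFA most closely were JUNB, DLK1 and FAM178B (Pearson r of at least 0.9996 over 6 libraries), and those closest to FLT1 were HECA, ACVR1 and MIB2 (r of 0.9992, 0.9988 and 0.9981). With 2 groups of 3 libraries a gap between the groups alone gives a high r: 360 of 549 candidate genes had r above 0.95 with VEGFA and 344 with FLT1.

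The FLT1 gene holds 30 exons in its full-length transcript, FLT1-201, which encodes the receptor of 1338 codons with its membrane anchor and kinase domain. Soluble forms share the start codon and the ligand-binding part but stop early. FLT1-207, of 13 exons and 687 codons, reads through the end of exon 13 (chr13:28389796-28390104) into intron 13. Its coding sequence goes on for 92 bases of the intron, and its last exon spans 4557 bases. FLT1-204, of 15 exons and 733 codons, joins exon 14 (chr13:28384885-28385031) to an alternative last exon, 15a (chr13:28368096-28368663), in place of exon 15 (chr13:28357554-28357685). The boundaries that tell these forms apart are shown in 30 bases on each side, from the GENCODE transcript sequences, 5′ to 3′ on the minus strand of GRCh38. Lower case is the exon the forms share, and capitals are what follows it:
FLT1 exon 13 to exon 14: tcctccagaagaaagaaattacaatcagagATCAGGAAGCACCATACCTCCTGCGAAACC
FLT1 exon 13 into intron 13: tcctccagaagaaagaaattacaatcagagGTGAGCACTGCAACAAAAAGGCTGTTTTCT
FLT1 exon 14 to exon 15: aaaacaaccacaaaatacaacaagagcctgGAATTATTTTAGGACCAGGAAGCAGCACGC
FLT1 exon 14 to exon 15a: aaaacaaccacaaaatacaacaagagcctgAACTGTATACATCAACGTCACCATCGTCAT

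The capitals of these lines lie at chr13:28385002-28385031, chr13:28389766-28389795, chr13:28357656-28357685 and chr13:28368634-28368663. Of the 10 annotated FLT1 transcripts, the read-through stretch is held by FLT1-207 and the exon 15a junction by FLT1-204. The deposited values are estimates per transcript and do not count reads over these boundaries, and reads from RNA that still holds intron 13 would fall on the long last exon of FLT1-207 as well.

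FLT1-207 had an estimated count of 0 in all 3 DMSO libraries and of 2655, 1906 and 1548 in the Chelator libraries (5.80, 4.03 and 3.90 TPM). FLT1-204 had 4.93, 0 and 7.40 counts in DMSO and 486, 378 and 287 in Chelator (2.19, 1.59 and 1.41 TPM). The third soluble form, FLT1-209, which shares most of its sequence with FLT1-207, had at most 5 counts in a DMSO library and 0, 13.5 and 79.7 in Chelator. The full-length FLT1-201 had 13.7, 0 and 1.26 counts in DMSO and 95.6, 87.7 and 86.5 in Chelator (0.175, 0.152 and 0.177 TPM). Full-length FLT1 RNA was therefore also more abundant in each Chelator library than in any DMSO library, but at a far lower level than the soluble forms FLT1-207 and FLT1-204.

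Soluble forms made up 97.0%, 97.4% and 96.9% of FLT1 TPM in the Chelator libraries, with FLT1-207 alone at 69.5% and FLT1-204 at 26.3% on average. The ratio of soluble to full-length TPM was 45.6, 37.2 and 31.2 in these libraries. The DMSO libraries gave soluble shares of 50.7%, 100% and 94.1%, on totals of 20, 5 and 10 counts, and so do not fix a share in untreated cells. The difference of 15.5 percentage points was smaller than the spread among DMSO libraries (SD 26.9) and had p = 0.5 in an exact two-sided permutation test, where 3 against 3 libraries can go no lower than 0.1. Without DMSO replicate 1 the difference was 0.0379 points, without DMSO replicate 2 it was 24.7 points, and without DMSO replicate 3 it was 21.7 points.

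Transcript usage, the split of a gene's RNA among its transcripts, was tested with edgeR's diffSpliceDGE, which called 1101 of 11938 genes (9.22%) at an adjusted Simes p under 0.05 and a share change above 5 percentage points. FLT1 had an adjusted p of 0.0112 in this test, which is not read as a change in usage. Its 3 transcripts in the test, FLT1-201, FLT1-204 and FLT1-207, passed the count filter through the Chelator libraries alone, FLT1-207 was at 0 in DMSO, and FLT1-209, which held all 5 FLT1 counts of DMSO replicate 2, was left out by the filter. The value was 0.167 without DMSO replicate 1, 0.0542 without DMSO replicate 3 and 0.268 with limma's diffSplice. The soluble share of Chelator cells rests on 2001 counts or more in each library.

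**Figure D3:**
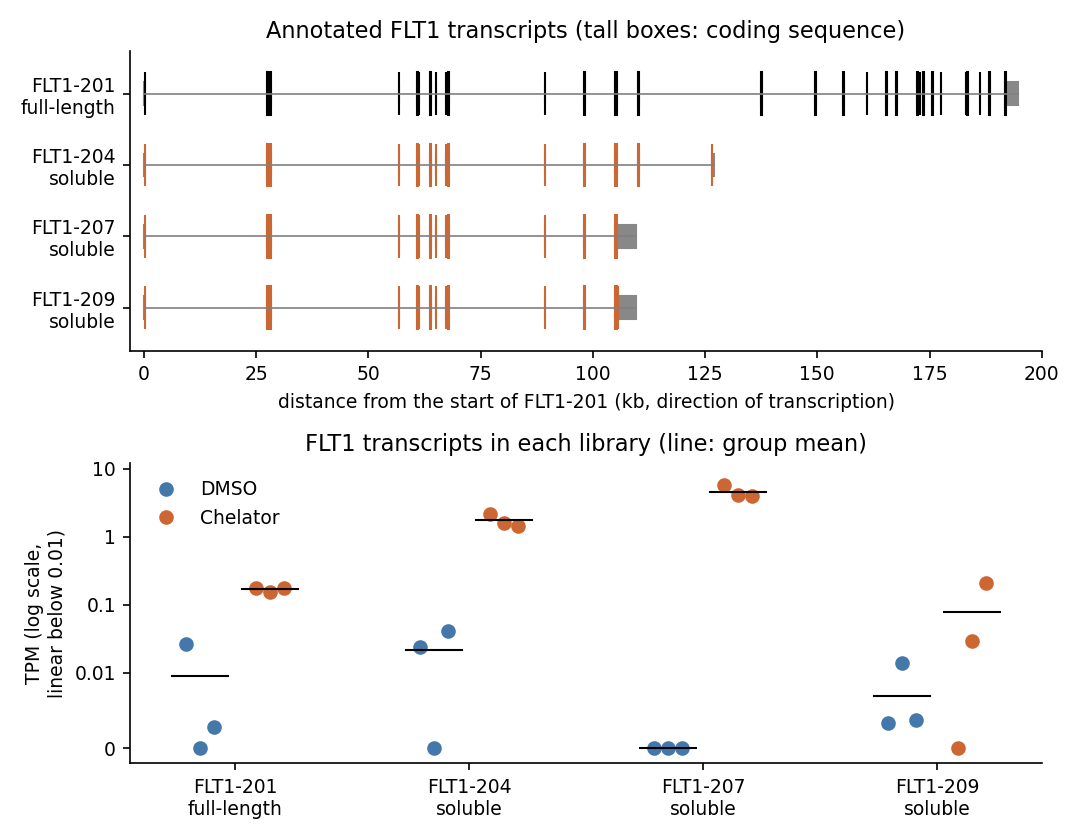
Top, annotated exons of the full-length and the 3 soluble FLT1 transcripts by distance in kb from the start of FLT1-201, with coding sequence as tall boxes. Bottom, TPM of each in the 6 libraries on an axis that is logarithmic above 0.01 TPM: FLT1-207 is at 0 in DMSO and at 3.90 to 5.80 TPM in Chelator, and FLT1-201 stays below 0.2 TPM in all libraries.

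NRP1 was described the same way after its values had been seen. Transcripts that stop before the full-length stop codon held 192, 153 and 101 counts in the Chelator libraries, against 69.3, 79.3 and 73.8 for the full-length forms of 923 and 906 codons. Truncated forms thus took 70.7%, 77.3% and 74.5% of NRP1 TPM in Chelator, most of it in NRP1-204 (644 codons; 59.2% on average), and all of the 1 to 11 counts in DMSO. Each NRP1 stretch of 31 bases, the match length salmon uses by default, was searched in the other NRP1 transcripts: 4892 of 7248 were found in no transcript outside the truncated class, but for the full-length class this held for only 129 of 5944. NRP1-204 and the full-length NRP1-206 held no stretch of their own, so their values, and the split between the classes, depend on how reads were divided. Its usage across groups was not read, since the 4 NRP1 transcripts in the usage test passed its count filter through the Chelator libraries alone.

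VEGFA RNA is spliced into forms named for the length of the secreted protein. They differ in whether exon 5 (chr6:43778889-43778918) is followed by exon 6a (chr6:43780732-43780803), exon 7 (chr6:43781956-43782087) or exon 8 (from chr6:43784541). Exons 6a and 7 encode the basic stretches that hold the protein on heparan sulfate and, for exon 7, bind neuropilin. The form of 121 residues lacks both and diffuses freely, the form of 165 has exon 7, and the form of 189 has both and stays on the matrix. The junctions that define them are given 5′ to 3′ on the plus strand, with exon 5 in lower case and the next exon in capitals:
VEGFA exon 5 to exon 8: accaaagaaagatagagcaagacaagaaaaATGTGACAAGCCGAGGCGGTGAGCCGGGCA
VEGFA exon 5 to exon 7: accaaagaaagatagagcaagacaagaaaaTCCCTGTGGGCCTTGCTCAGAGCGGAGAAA
VEGFA exon 5 to exon 6a: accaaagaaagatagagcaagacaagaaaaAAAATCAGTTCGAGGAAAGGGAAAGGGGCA

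The 121-type transcript, VEGFA-206, was at 6.01, 6.55 and 4.87 TPM in DMSO and at 12.4, 12.2 and 11.5 TPM in Chelator. The transcripts with exon 7 and without 6a, called the 165 type here, were at 9.55, 10.5 and 8.32 TPM in DMSO and at 46.6, 50.4 and 53.2 TPM in Chelator. That class is set by its exons and not by protein length: in DMSO it held VEGFA-201 and VEGFA-209, whose annotated secreted protein has 187 residues, while VEGFA-205, annotated at 165, was at 0. The 189-type transcript, VEGFA-226, was at 2.12, 1.26 and 2.09 TPM in DMSO and at 13.1, 17.3 and 18.6 TPM in Chelator. All 3 forms were higher in every Chelator library, with ratios of mean TPM of 2.07 for the 121 type, 5.30 for the 165 type and 8.98 for the 189 type. The forms with heparan sulfate binding exons thus had the larger ratios. VEGFA-205, VEGFA-206, VEGFA-209 and VEGFA-226 hold no stretch of 31 bases that is absent from every other VEGFA transcript, so these levels depend on how salmon divided shared reads.

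Among VEGFA transcripts with a complete coding sequence, the 121 type held 33.1%, 35.7% and 31.5% in DMSO and 16.9%, 14.98% and 13.6% in Chelator. The 165 type held 54.6% ± 2.37 in DMSO and 62.9% ± 0.722 in Chelator, and the 189 type 10.7% ± 3.45 and 20.4% ± 2.27 (SD, n = 3). The groups did not overlap for any of the 3. Each had p = 0.1 in an exact two-sided permutation test, the lowest the design allows, and 0.267 after adjustment over the classes.

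The usage test across all genes called VEGFA (adjusted p = 6.28e-15, diffSpliceDGE). That value was set by VEGFA-205, which had the smallest p of the 11 VEGFA transcripts tested (1.39e-18, diffSpliceDGE). VEGFA-205 was at 0 in DMSO and passed the count filter through the Chelator libraries alone, so the value is not read as a change in usage. VEGFA-205 and VEGFA-209 are 165-type transcripts with the same introns that start 2 bases apart. They are annotated to end at different stop codons, so RNA reads can hardly divide them. With transcripts of the same introns summed, a setting chosen after seeing the data, VEGFA was still called (adjusted p = 9e-06). In that fit the 121 type changed by -1.55 on the log2 scale relative to the rest of VEGFA (adjusted p = 5e-06 over all transcripts), VEGFA-215 by 0.81 (adjusted p = 0.0257), and the 165 type had 0.04 and the 189 type 0.54 (adjusted p = 1 and 0.376). The fall of the 121 type relative to other VEGFA RNA was the larger of the 2 changes that passed in the summed fit. With transcripts kept apart, VEGFA-206 had an adjusted p of 0.00256 and VEGFA-215 of 0.228 (diffSpliceDGE), so VEGFA-215 did not pass there.

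Transcripts that GENCODE marks as holding a retained intron took 40.7%, 36.3% and 41.7% of VEGFA TPM in DMSO and 52.8%, 56.9% and 58.0% in Chelator, a difference of 16.4 percentage points without overlap. The exact permutation test gave p = 0.1 and, after adjustment over the classes, 0.2. They are partial transcripts: VEGFA-211 begins at the gene start and ends 228 bases into the intron after exon 4, VEGFA-216 ends in the intron after exon 3, and VEGFA-214 and VEGFA-215 begin in it. VEGFA-211 took 19.5% of VEGFA TPM in DMSO and 19.6% in Chelator on average, VEGFA-215 8.64% and 14.6%, VEGFA-216 4.69% and 11.3%, and VEGFA-214 3.46% and 7.24%. VEGFA-214 and VEGFA-216 are 551 and 475 bases long and VEGFA-215 is 2746, and the part of fragment length in their values was not tested. By share of estimated counts in place of TPM, the retained-intron difference was 9.47 points and that of the 165 type -0.49 in place of -5.43.

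VEGFA-215 also splices exon 5 to exon 8, and VEGFA-214 splices exon 5 to exon 7. When all transcripts were grouped by the exon that follows exon 5, a grouping chosen after seeing the data, exon 8 followed in 39.9%, 41.9% and 37.6% of their TPM in DMSO and in 31.6%, 32.2% and 33.4% in Chelator. Exon 6a followed in 9.89% ± 3.33 and 14.6% ± 0.665, and exon 7 in 50.3% ± 1.75 and 53.0% ± 1.57 (SD, n = 3). The share of transcripts with the direct junction to exon 8 was thus lower in every Chelator library, by 7.40 points (exact permutation p = 0.1, adjusted 0.15). Most of that group in Chelator was the partial transcript VEGFA-215, at 20.5 to 31.9 of its 32.9 to 43.3 TPM, so the value is not one of the 121 type.

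**Figure D4:**
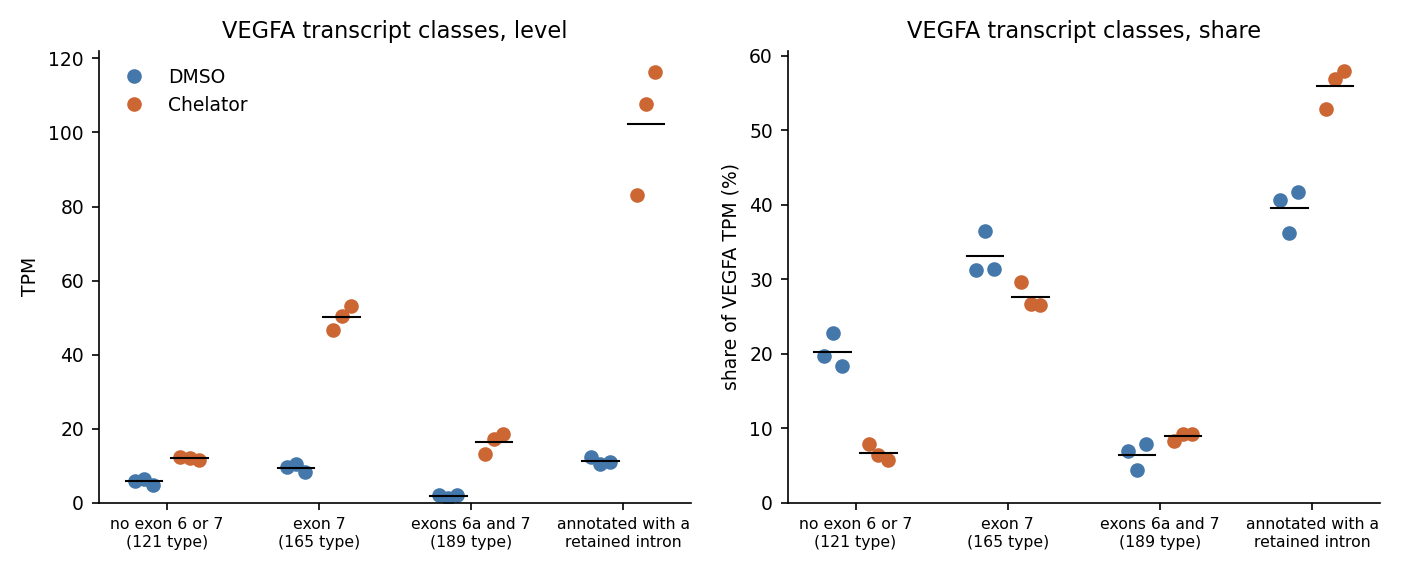
TPM (left) and percent of all VEGFA TPM (right) of 4 classes of VEGFA transcripts in the 6 libraries, with a line at the mean of each group. All classes are higher in Chelator by level, whereas by share the class without exons 6 and 7 goes from 18.4% to 22.8% in DMSO to 5.72% to 7.90% in Chelator.

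VEGFC, KDR and NRP2 had no transcript with enough counts for the usage test, and VEGFB, PGF and FLT4 were tested and not called. VEGFB was divided among VEGFB-201 (207 codons; 52.8% of TPM in DMSO and 59.7% in Chelator), VEGFB-202 (188 codons; 11.4% and 11.1%) and the retained-intron VEGFB-204 (35.8% and 29.2%), the former 2 being the diffusible and the matrix-bound ligand forms (adjusted p = 1). PGF had an adjusted p of 1 and FLT4 of 0.368. Antisense genes that overlap VEGFA and NRP1 had a count of 0 in every library.

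Genes that act with these ligands and receptors were read from lists of the pathway, each count to be set beside the 10.8% of all genes that were called. The lists were not compared with other genes or with each other by a test. Of 58 genes of receptor signaling, 57 had an adjusted p, 4 were called higher and 1 lower, and the median log2 fold change was -0.00143 beside 0.016 over all genes. The adaptor SHC2 had 2.88 (SE 0.42), the p38 kinase MAPK13 3.01 (SE 0.37), the exchange factor VAV1 1.26 (SE 0.10) and the focal adhesion scaffold PXN 1.097 (SE 0.07), while PIK3R2, a regulatory subunit of PI3 kinase, had -1.102 (SE 0.07). SHC2 and MAPK13 stayed low, at 0.678 and 0.896 TPM on average in Chelator, and limma on log2(TPM + 1) gave them 0.62 and 0.74, under the fold threshold. MAPK13 had 2.11 without the length offset, and PXN 0.995 when changes were centered on their mean over genes.

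Among 14 neuropilin partners, semaphorins, plexins and their adaptors, 2 were called, both higher: SEMA3B, a semaphorin that signals through neuropilins, at 2.70 (SE 0.37), and the adhesion molecule L1CAM at 2.89 (SE 0.49). With limma on log2(TPM + 1) neither was called, at 0.89 and 0.64. Of 15 receptor phosphatases, integrins and heparan sulfate proteoglycans, 14 had an adjusted p and 3 were called higher. These were ITGA5 (1.35, SE 0.08) and ITGB3 (1.95, SE 0.15), integrin subunits that cooperate with VEGF receptors, and GPC1 (2.44, SE 0.17), a surface proteoglycan that binds VEGFA. ITGB3 had 0.94 in the limma fit. Of 12 genes for ligand maturation and release, 11 had an adjusted p and only HPSE, a heparanase that frees matrix-bound VEGFA, was called, at 1.35 (adjusted p = 0.0303, DESeq2). Its groups overlapped, and it lost the call without DMSO replicate 1 (adjusted p = 0.117), DMSO replicate 3 (0.151), Chelator replicate 2 (0.291) or Chelator replicate 3 (0.103), and with limma on log2(TPM + 1) (0.23, adjusted p = 0.155).

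Of 22 factors known to act on VEGFA or FLT1 RNA, 2 were called higher and 2 lower. ZFP36L1, which speeds decay of VEGFA mRNA through its AU-rich elements, went from 17.1 to 62.2 TPM (1.83, SE 0.09), and CLK1, a kinase of splicing factors, from 7.39 to 16.8 TPM (1.15, SE 0.12). SRSF1, a splicing factor known to act on splice site choice in VEGFA exon 8, went from 631 to 317 TPM (-1.02, SE 0.08), and DICER1, which processes microRNAs, from 7.57 to 3.63 TPM (-1.08, SE 0.10). SRSF1 sat at the fold threshold, at -0.97 without Chelator replicate 1 and -0.99 without DMSO replicate 3, and DICER1 at -0.99 without DMSO replicate 2. SRSF1 was also just inside it with TMM size factors (-0.98), with edgeR (-0.98), without the length offset (-0.99) and with limma on log2(TPM + 1) (-0.99), and DICER1 without the length offset (-0.90) and with limma (-0.88). SRPK1, a kinase of splicing factors, lay just inside the threshold (168 to 87.7 TPM; -0.96, adjusted p = 1.21e-36, DESeq2), and 3 factors in place of 2 were called lower when changes were centered on their mean. Of 10 hypoxia-inducible factor subunits and oxygen sensors, only EPAS1 was called: it rose from 2.15 to 18.4 TPM (3.08, SE 0.13), whereas HIF1A was at 22.5 and 22.9 TPM (0.00, SE 0.10).

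Of 34 other angiogenic ligands and receptors, 26 had an adjusted p and 10 were called, all higher, with a median log2 fold change of 1.05. PDGFB rose from 0.352 to 16.6 TPM (5.53, SE 0.13), its receptor PDGFRB from 0.00561 to 1.78 TPM (8.19, SE 0.58) and PDGFA from 3.96 to 20.1 TPM (2.32, SE 0.14). PDGFRB averaged only 1.88 normalized counts in DMSO, so the size of its fold is uncertain: it ran from 7.755 to 8.743 with 1 library left out. The chemokine CXCL8 (3.31, SE 0.25) and ANGPTL4 (2.86, SE 0.35), a secreted regulator of vessel permeability, rose as well. With limma on log2(TPM + 1) 5 of the list were called, and ANGPTL4, at 0.90, was not. Of 14 endothelial markers, 10 had an adjusted p and 4 were called higher: EGFL7 (1.02, SE 0.08), ESAM (1.91, SE 0.36), TIE1 (1.36, SE 0.35; also among the 10 angiogenic genes called) and ERG. ERG was at 0 in DMSO and at 0.0242 to 0.127 TPM in Chelator, so it passed the count filter through the Chelator libraries alone. With limma on log2(TPM + 1) ESAM had 0.67, TIE1 0.43 and ERG 0.09 (adjusted p = 0.167), which left EGFL7 as the 1 marker called. EGFL7 had 0.95 without DMSO replicate 2, 0.98 without Chelator replicate 3 and 0.91 when changes were centered on their mean. In the other direction PECAM1 (-0.81, adjusted p = 5.78e-05), MMRN2 (-0.97, adjusted p = 6.96e-05) and SOX18 (-0.25, adjusted p = 0.0497) had an adjusted p under 0.05 with DESeq2 but lay inside the fold threshold. With changes centered on their mean, 3 endothelial markers were called higher and 1 lower. Of the 11 erythroid markers only ALAS2 was called, at 1.00 (SE 0.09), and it fell under the fold threshold without DMSO replicate 1 (0.99), DMSO replicate 3 (0.94) or Chelator replicate 1 (0.97), with limma on log2(TPM + 1) (0.99) and with changes centered on their mean (0.90). Inside the fold threshold, the 4 globins had an adjusted p under 0.05 in the higher direction, and the erythroid regulators KLF1 (82.0 to 50.9 TPM; -0.72, adjusted p = 4.54e-23, DESeq2), NFE2 (-0.40), EPOR (-0.44) and TAL1 (-0.28) in the lower.

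**Figure D5:**
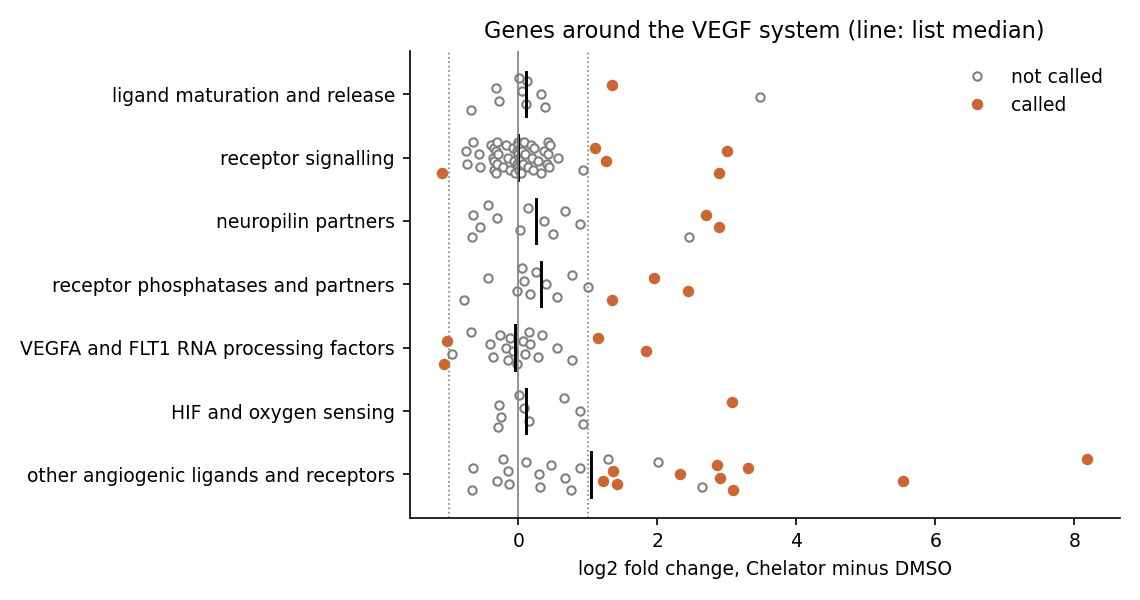
Log2 fold change (Chelator minus DMSO) of every gene with an adjusted p in 7 lists around the VEGF system (points; filled where called, the line at each list's median, the dotted lines at the fold threshold). The list of other angiogenic genes has its median at 1.05 and reaches 8.19 at PDGFRB, whereas receptor signaling centers on 0.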

How the data were processed

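K562 libraries from 3 DMSO and 3 Chelator cultures were grouped by their labels. The authors quantified reads with salmon and deposited 1 table per library; the submitters' processing notes name Salmon 1.10.2. The deposited estimated counts per transcript are not whole where a read fits several transcripts, and the deposited TPM values are the authors' estimates scaled per library after division by effective length. Deposited lengths and effective lengths were used for the length offset. The annotation and the strandedness were not given in the sources used here. Transcripts were matched to GENCODE 44 (GRCh38): 251142 of 252045 by version and length, 470 by identifier, and 433 not at all.

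Counts summed per gene were rounded and tested with DESeq2 1.42.0 (total above 10, length offset) in R 4.3.3, and transcript usage with edgeR 4.0.16 (at least 10 counts in at least 3 libraries). The gene test follows the study's stated method; its splicing test, rMATS, needs aligned reads and was not run here. Alternatives were edgeR, limma 3.58.1, other scalings and filters, a replicate block and each library left out. The fits were also run on simulated data, after the gene fit of the real data. Classes of FLT1, VEGFA and NRP1 transcripts came from annotated coding sequences. All p-values rest on 3 cultures a group.

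All 9 members were named. From each further list up to 5 called genes were named, the smallest adjusted p first, and from VEGFA and FLT1 the transcripts with at least 5% of TPM in a group. Genes closest to VEGFA and FLT1 were taken from called protein-coding genes whose normalized counts averaged at least 500. The members and lists were chosen with earlier results of these data known.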

Additional observations from a re-analysis of the deposited data

How the results depend on the processing

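The calls of VEGFA and FLT1 and the direction of all 7 members held under every alternative run; 3 members were called in each refit, except 4 without the length offset (FLT4 added), 2 with limma on log2(TPM + 1) (NRP1 lost) and 4 without the fold threshold (VEGFB added). Over all genes, 9260 were called without the fold threshold and 797 with limma, and 2207 to 2607 with a library left out. Of 461 values of the 33 named genes under the alternatives, none changed sign, 33 lost a call and 1 gained one. Usage calls numbered 3184 with limma's diffSplice, and 539 to 1063 with a library left out (592 without Chelator replicate 2, 539 without Chelator replicate 3). FLT1's adjusted p for usage was 0.268 with limma and 0.00343 to 0.167 with a DMSO library left out, and could not be computed with a Chelator library left out, since too few of its transcripts then passed the filter; VEGFA's was at most 0.0221 with a library left out. With the replicate number as a replicate block, 2345 genes and the same 3 members were called, and FLT1's usage call was lost (adjusted p = 0.0697); same-numbered libraries deviated together with correlations of -0.00363, 0.125 and 0.0939, and not every library correlated best with its own number. The share differences of VEGFA moved with the denominator: among complete coding transcripts the 165 type reversed from -5.43 to 8.35 points, because the retained-intron class leaves the total, the 121 type went from -13.6 to -18.3 and the 189 type from 2.53 to 9.75. By estimated counts the retained-intron class was at 9.47 and the 165 type at -0.492, and among transcripts spliced from exon 5 those that join it to exon 8, mostly VEGFA-215 in Chelator, were at -7.40. The counts of untreated cells limit what can be said of FLT1, NRP1 and NRP2 there.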
